A study of Mus musculus with 20 samples.

Results

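The hnRNP family is described here by 10 genes, Hnrnpa1, Hnrnpa2b1, Hnrnpa3, Hnrnpc, Hnrnpd, Hnrnpf, Hnrnph1, Hnrnpk, Hnrnpl and Hnrnpu, chosen by their symbols from the 37748 entries of 1 expression table. All 10 were found, and all 10 passed the filter on low values that 10890 entries passed. The table covers sorted CFU-E, the committed red cell progenitors of mouse bone marrow, in 4 groups of 5 libraries. These are Mx1-Cre Srsf2 P95H/+ mice (called P95H) given phenylhydrazine (PHZ), Mx1-Cre mice given PHZ, P95H mice given saline (PBS), and Mx1-Cre mice given PBS. PHZ, which destroys red cells, was injected subcutaneously on days 0 and 1 at a dose of 30 mg/kg, and CFU-E were collected on day 4. All 4 groups carry Mx1-Cre, a recombinase under an interferon-inducible promoter, and P95H is a heterozygous point mutation of the splicing factor Srsf2. The ages of the mice and the induction of Cre are not given in the sources used here.

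Heterogeneous nuclear ribonucleoproteins coat newly made RNA in the nucleus. They influence which splice sites are used, where transcripts end, and how long messenger RNAs last. Many of them bind silencer sequences and oppose the serine and arginine-rich (SR) proteins, of which Srsf2 is one. SRSF2 binds the exonic motifs CCNG and GGNG, and the P95H form is known to favour CCNG over GGNG.

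The values are normalised signal with the form of TPM, so levels can be compared between genes per transcript length. Between 10364 and 10755 entries reached a value of 1 in a library. The labels state a minimum of 100000000 reads per sample, but without counts in the table the depth of a single library is unknown. The labels give each library its own name, and p-values measure the spread between these libraries. All 10 CFU-E identity genes, among them Gata1, Klf1, Epor and Kit, were present in every library. Their summed signal was 3815 to 4619 in P95H PHZ libraries, 4688 to 6092 in Mx1-Cre PHZ libraries, 3879 to 5358 in P95H PBS libraries and 5394 to 6005 in Mx1-Cre PBS libraries, so it was lower in every P95H library than in every Mx1-Cre library under the same treatment. Car1, a carbonic anhydrase, made up most of this sum, with means of 2395 in P95H and 3624 in Mx1-Cre libraries after PHZ, and 2944 in P95H and 4009 in Mx1-Cre libraries after PBS. After PHZ 2 of the 10 were higher and 4 lower in P95H, and 2 higher and 2 lower in Mx1-Cre. By genotype 0 were higher and 1 lower in P95H after PHZ (8 of 10 estimates below 0) and none was called after PBS (9 of 10 below 0). The part of these identity genes in the member differences was not tested. The surface markers excluded by the sort (Ly6a, Itga2b, Fcgr3 and Slamf1) stayed at or below 3.65. Markers of granulocytes and monocytes (18 genes, 14 passing the filter) were also present, with a summed signal of 160.2 to 600.4 in P95H PHZ libraries, 152 to 1086 in Mx1-Cre PHZ libraries, 567 to 2490.2 in P95H PBS libraries and 457 to 961 in Mx1-Cre PBS libraries. Of them, Ly6g was at 0 in 5 of 20 libraries and the others in none. No lymphoid, megakaryocyte, basophil, mast cell or macrophage marker examined was above 11.04 in any library, and Cd3e was at 0 in 19 of 20. Srsf2 itself averaged 586 ± 20.2 in P95H PHZ libraries, 685 ± 35.6 in Mx1-Cre PHZ libraries, 623 ± 49.3 in P95H PBS libraries and 679 ± 31.9 in Mx1-Cre PBS libraries (SD, n = 5 each). It was lower in P95H after PHZ (log2 fold change -0.22, adjusted p = 0.0188), a call lost without Mx1-Cre PHZ replicate 5 (0.0515), with the authors' factors divided out (0.0762) and after quantile normalization (0.0986). This does not check the genotype, since a level per gene does not show the base change.

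On average the 10 members together held 0.942% of the signal of P95H PHZ libraries, 0.903% of Mx1-Cre PHZ, 0.886% of P95H PBS and 0.874% of Mx1-Cre PBS libraries. Hnrnpa1, which binds silencers and helps carry RNA out of the nucleus, and Hnrnpa2b1, its closest relative here and a reader of RNA sorting signals, stood at the top, with means over 20 libraries of 1620.2 and 1601. Hnrnpa1 was above Hnrnpa2b1 in 11 of 20 libraries, so these neighbours cannot be ordered over the whole series. Within groups they can in part. Hnrnpa2b1 was the higher of the 2 in 5 of 5 P95H PBS libraries (ratio to Hnrnpa1 1.139 to 1.196) and in 0 of 5 Mx1-Cre PHZ libraries (0.801 to 0.852), with ratios on both sides of 1 in P95H PHZ (0.837 to 1.17) and Mx1-Cre PBS libraries (0.885 to 1.118). Hnrnpf, which binds runs of G, came next at 1194, below both in every library. Hnrnpk, a KH-domain protein that binds runs of C, averaged 946, and Hnrnpa3, another A/B-type protein, averaged 838, with ranges that overlapped. The place of Hnrnpa3 holds for its own entry alone, because its reads may be split with near-identical copies, described below. With these copies added, its group means ran from 1696 (P95H PHZ) to 1887 (Mx1-Cre PBS), above the Hnrnpa1 mean of each group. Those of Hnrnpa1 ran from 1543 (P95H PBS) to 1698 (Mx1-Cre PHZ). The order and the shares given here leave the copies out, and the origin of their reads was not tested. Hnrnpu, the large scaffold-attachment protein, averaged 741 and was below Hnrnpa3 in every library. Hnrnpd (AUF1), known for binding AU-rich messages, averaged 551, and Hnrnpc, which binds runs of U, 529. Hnrnpd was above Hnrnpc in 14 of 20 libraries, with overlapping ranges. Hnrnpl, which binds CA repeats, averaged 474, and Hnrnph1, the closest relative of Hnrnpf, 407, which placed it below Hnrnpl in 18 of 20 libraries. The exceptions were Mx1-Cre PBS replicates 2 and 4, and in that group the means were 464.9 for Hnrnph1 and 463.8 for Hnrnpl, with overlapping ranges. Within groups the log2 values of a member spread little, with an SD of 0.0491 for Hnrnpk to 0.127 for Hnrnpd, against a median of 0.11 over the 328 genes with a mean of at least 400.

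**Figure D1:**
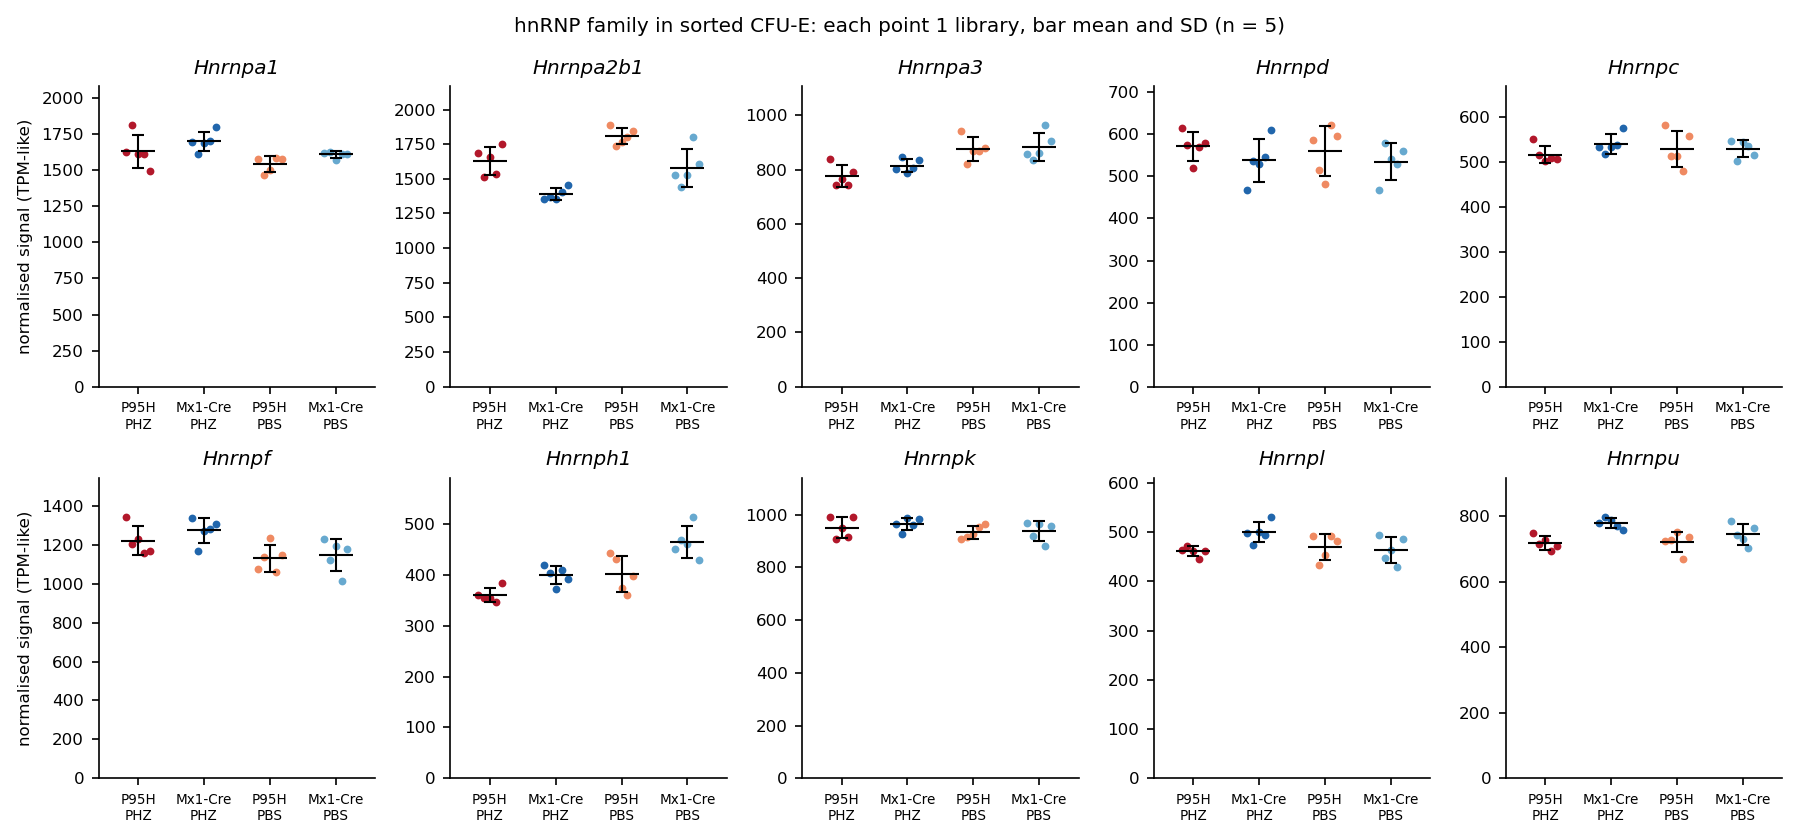
Normalised signal (y axis, TPM-like, from 0) of each of the 10 members in P95H PHZ, Mx1-Cre PHZ, P95H PBS and Mx1-Cre PBS libraries (x axis); each point is 1 library, the long bar the mean and the whiskers the SD (n = 5). Hnrnpa2b1 stands higher in both P95H groups (means 1628 and 1808) than in the Mx1-Cre groups under the same treatment (1389 and 1581), and Hnrnph1 stands lower (361 and 401, against 399.6 and 465), while Hnrnpk stays between 880.1 and 992 in all 20 libraries.

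The clearest difference between the genotypes lay in 2 members that moved in opposite directions. Averaged over both treatments, Hnrnpa2b1 was 15.9% higher in P95H than in Mx1-Cre CFU-E (log2 fold change 0.21, SE 0.0400, adjusted p = 0.00161). Hnrnph1 was lower in P95H, with a change of -11.8% (log2 fold change -0.18, SE 0.0415, adjusted p = 0.00705). The average was taken after the results per treatment were seen. All p-values are from limma with Benjamini-Hochberg adjustment over the 10890 genes, two-sided, and a gene is called at an adjusted p under 0.05. Of all genes, 10.5% were called in this average, 2.66% higher and 7.88% lower, against 1 member higher and 1 lower of 10. Of the calls, 25.3% were higher, and 42.7% with the authors' factor for each library divided out or 49.3% after quantile normalization. Hnrnpu missed the threshold (log2 fold change -0.08, adjusted p = 0.0958), and the other 7 members had estimates between -0.06 and 0.08.

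Hnrnpa2b1 (ENSMUSG00000004980) lies on chromosome 6 at 51460932 to 51469894, minus strand, of GRCm38, with 13 annotated transcripts, of which 2 are marked as targets of nonsense-mediated decay and 5 as retaining an intron. Hnrnph1 (ENSMUSG00000007850) lies on chromosome 11 at 50376990 to 50386528, plus strand, with 18 annotated transcripts. The table gives 1 value per gene, so a switch between transcripts is not seen in it. The 90 coding bases of each gene with the most GGNG motifs are shown because GGNG is a known SRSF2 motif. Binding of SRSF2 to these stretches was not tested. Each GGNG is in capitals, at coding positions 731 to 820 of Hnrnpa2b1 and 373 to 462 of Hnrnph1, counted from the A of the start codon.
Hnrnpa2b1 coding: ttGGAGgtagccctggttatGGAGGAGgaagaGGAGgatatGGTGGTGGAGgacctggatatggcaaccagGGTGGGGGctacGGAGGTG
Hnrnph1 coding: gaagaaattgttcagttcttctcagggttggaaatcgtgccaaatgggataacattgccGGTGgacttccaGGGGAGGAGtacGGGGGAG
The Hnrnpa2b1 window holds 12 GGNG and 3 CCNG motifs and the Hnrnph1 window 7 and 2, overlapping motifs counted.

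In the PHZ-treated mice, Hnrnpa2b1 measured 1686, 1515, 1657, 1535 and 1748 in the P95H libraries and 1355, 1372, 1355, 1402 and 1459 in the Mx1-Cre libraries. All 5 P95H libraries lay above every Mx1-Cre library. The log2 fold change was 0.23 (SE 0.0566, 95% interval 0.11 to 0.345, adjusted p = 0.0209). It was the 1 member called of 10, where 5.47% of all genes were called, 1.10% higher and 4.37% lower. Higher genes made up 20.1% of these calls, and 47.8% with the factors divided out or 44.2% after quantile normalization. The call did not survive leaving out P95H PHZ replicate 3 (adjusted p = 0.0553) or 5 (0.0585), or Mx1-Cre PHZ replicate 1 (0.0503) or 3 (0.0574), with estimates of 0.20 to 0.22.

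In the PBS-treated mice, Hnrnpa2b1 measured 1887, 1739, 1764, 1804 and 1847 in the P95H libraries and 1530.3, 1439.5, 1526, 1801 and 1606 in the Mx1-Cre libraries. Mx1-Cre PBS replicate 4, at 1801, lay within the P95H range, and the other 4 lay below it. The log2 fold change of 0.20 (SE 0.0566, 95% interval 0.08 to 0.315) missed the threshold with an adjusted p of 0.0857, and passed it without that library (log2 fold change 0.25, adjusted p = 0.0179). No member was called after PBS in limma, where 1.48% of all genes were called, 0.358% higher and 1.12% lower (24.2% of calls higher, 39.4% after quantile normalization). Hnrnpa2b1 and Hnrnph1, 2 of 10 members, had an unadjusted p under 0.05, as did 1539 of the 10890 genes.

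Hnrnph1 measured 361, 355, 355, 347 and 385 in the P95H PHZ libraries and 420.0, 404, 373, 409 and 392 in the Mx1-Cre PHZ libraries. The highest P95H library overlapped the lowest Mx1-Cre library, and the other 4 P95H libraries lay below all of them. After PBS it measured 443, 430.2, 373, 361 and 398 in the P95H libraries and 452, 468, 461, 514 and 429 in the Mx1-Cre libraries, where 3 of 5 P95H libraries lay below every Mx1-Cre library. Under each treatment alone the difference missed the threshold, at a log2 fold change of -0.15 (SE 0.0588, adjusted p = 0.144) after PHZ and -0.21 (SE 0.0588, adjusted p = 0.0711) after PBS.

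The ratio of Hnrnpa2b1 to Hnrnph1 within a library does not depend on the scaling of that library. It was 4.67, 4.27, 4.66, 4.42 and 4.54 in P95H PHZ libraries and 3.23, 3.40, 3.63, 3.42 and 3.72 in Mx1-Cre PHZ libraries. After PBS it was 4.26, 4.04, 4.73, 5.00 and 4.64 in P95H libraries and 3.39, 3.07, 3.31, 3.50 and 3.74 in Mx1-Cre libraries. All 10 P95H libraries thus lay above all 10 Mx1-Cre libraries under either treatment. This ratio was picked after the values of both genes were seen, so it is given as a description without a test.

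**Figure D2:**
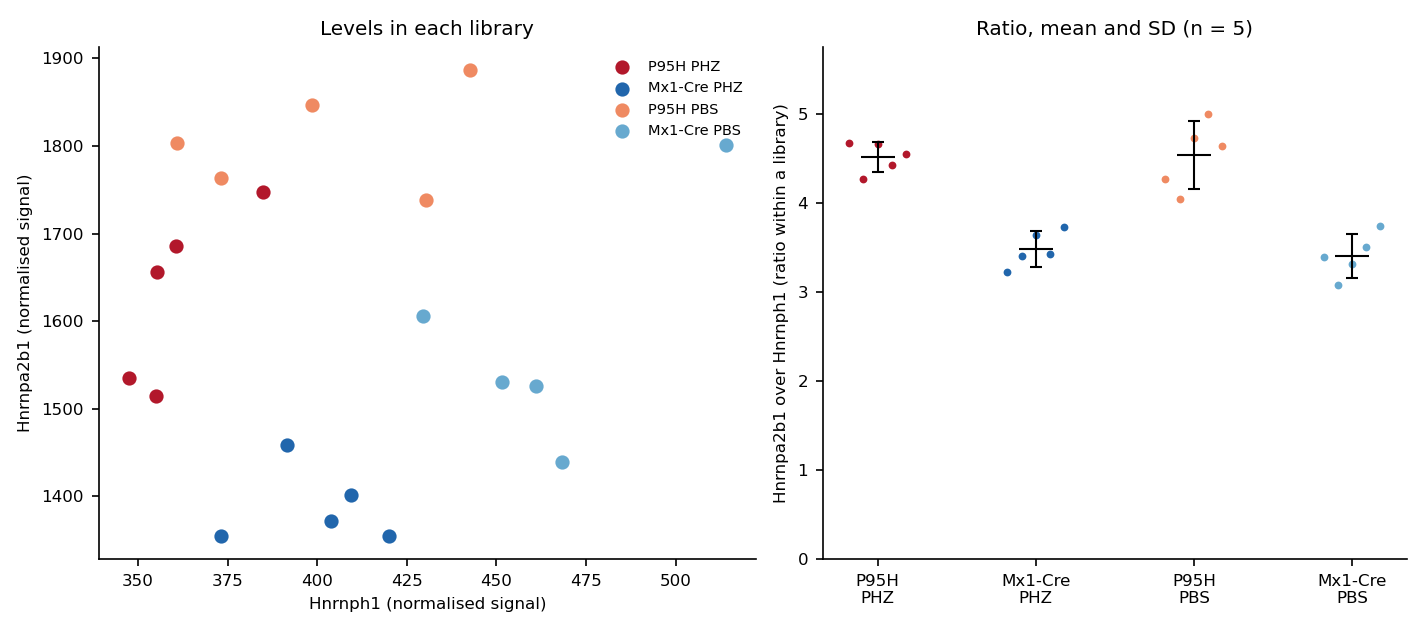
Left, Hnrnph1 (x axis) against Hnrnpa2b1 (y axis), both in normalised signal, with 1 point per library and axes that do not start at 0; right, the ratio of Hnrnpa2b1 to Hnrnph1 within each library (y axis, from 0), with the mean and SD of 5 libraries per group. The ratio averages 4.51 ± 0.172 in P95H PHZ and 4.53 ± 0.38 in P95H PBS, and 3.48 ± 0.198 in Mx1-Cre PHZ and 3.40 ± 0.245 in Mx1-Cre PBS.

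In bulk RNA, fewer cells of a type and less RNA per cell cannot be told apart. Beside the genotype result, the granulocyte and monocyte markers had estimates above 0 in P95H against Mx1-Cre after PBS in 14 of 14 genes (median log2 fold change 0.89, none called), and their median after PHZ was 0.01. With the mean of these markers as a covariate, the averaged genotype difference was 0.18 for Hnrnpa2b1 (adjusted p = 0.0041) and -0.17 for Hnrnph1 (adjusted p = 0.021). Both members were called in the same direction under all 31 alternatives run, with log2 fold changes of 0.18 to 0.27 for Hnrnpa2b1 (adjusted p up to 0.00774) and -0.20 to -0.15 for Hnrnph1 (adjusted p up to 0.0332).

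Hnrnpu and Hnrnpl were each lower in all 5 P95H PHZ libraries than in every Mx1-Cre PHZ library, but neither was called. Hnrnpu measured 749, 714, 728, 692 and 708 in P95H PHZ and 779, 798, 787, 771 and 756 in Mx1-Cre PHZ (log2 fold change -0.12, SE 0.0435, adjusted p = 0.12). Hnrnpl measured 464, 472, 461, 445 and 461 in P95H PHZ and 498, 474, 501, 495 and 531 in Mx1-Cre PHZ (log2 fold change -0.12, SE 0.0491, adjusted p = 0.17). Counting Hnrnpa2b1, 3 of 10 members had groups that did not overlap, 1 higher and 2 lower in P95H, as did 6.95% of all genes, 1.57% higher and 5.38% lower. After PBS the estimates were -0.05 for Hnrnpu and 0.02 for Hnrnpl, with overlapping groups.

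PHZ treatment went with lower levels of Hnrnpa2b1, Hnrnpa3 and Hnrnph1 and a higher level of Hnrnpf when averaged over both genotypes. Hnrnph1 changed by -11.9% (log2 fold change -0.18, SE 0.0415, adjusted p = 0.00109) and Hnrnpa2b1 by -11.0% (-0.17, SE 0.0400, adjusted p = 0.00162). Hnrnpa3 changed by -9.54% (-0.14, SE 0.0357, adjusted p = 0.00215) and Hnrnpf by 9.51% (0.13, SE 0.0422, adjusted p = 0.0143). That is 3 members lower and 1 higher of 10, in an average that called 46.7% of all genes, 24.6% lower and 22.1% higher, so the share of members called is close to the background. Higher genes made up 47.3% of these calls, and 66.9% with the factors divided out. This average, too, was chosen after the results per genotype were seen. The PHZ and genotype comparisons use the same 4 groups, so a group that stands apart enters both.

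In P95H mice, 2 members were lower after PHZ and 0 higher, where 30.2% of all genes were called, 17.7% lower and 12.6% higher. Higher genes made up 41.6% of these calls, and 70.0% with the factors divided out. Hnrnpa2b1, whose values are given above, had a log2 fold change of -0.15 (SE 0.0566, adjusted p = 0.0450). In 4 of 5 PHZ libraries it lay below every PBS library. The call was lost in 7 of 10 fits that left out 1 library, and kept only without P95H PHZ replicate 1 or 5 or P95H PBS replicate 2 (adjusted p over the 10 fits 0.0257 to 0.121). Hnrnpa3 measured 840.4, 742, 766, 742 and 791 in P95H PHZ libraries and 941, 821, 869, 869.8 and 878 in P95H PBS libraries, with 1 PHZ library inside the PBS range (log2 fold change -0.17, SE 0.0504, adjusted p = 0.0121). Hnrnph1 missed the threshold (log2 fold change -0.15, adjusted p = 0.0586), with 4 of 5 PHZ libraries below every PBS library, and passed it without P95H PHZ replicate 5 (adjusted p = 0.0371) or P95H PBS replicate 3 (0.0378) or 4 (0.0234).

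In Mx1-Cre mice, 2 members were lower after PHZ and 0 higher, where 31.9% of all genes were called, 14.9% lower and 17.0% higher. Higher genes made up 53.4% of these calls, and 64.8% with the factors divided out. Hnrnph1 was lower in 5 of 5 PHZ libraries than in every PBS library, the 1 member of 10 whose groups did not overlap, as did 22.4% of all genes, 9.82% lower and 12.6% higher (log2 fold change -0.22, SE 0.0588, adjusted p = 0.00775), and kept this call under all 21 alternatives run. Hnrnpa2b1 was lower too, and 4 of 5 PHZ libraries lay below every PBS library (log2 fold change -0.18, SE 0.0566, adjusted p = 0.0172). It missed the threshold without Mx1-Cre PBS replicate 4 (-0.14, adjusted p = 0.0600), after quantile normalization (-0.10, adjusted p = 0.199) and with the marker covariate (-0.12, adjusted p = 0.144). Hnrnpf measured 1336, 1169.8, 1271, 1284 and 1309 in Mx1-Cre PHZ libraries and 1227, 1123, 1196, 1013 and 1179.5 in Mx1-Cre PBS libraries. Its 4 highest PHZ libraries lay above every PBS library, and the estimate of 0.15 (SE 0.0597) missed the threshold with an adjusted p of 0.0562, but passed it without Mx1-Cre PHZ replicate 2 (0.0313) or Mx1-Cre PBS replicate 1 (0.0404), with the factors divided out (0.0323) and after quantile normalization (0.0150). Hnrnpa3 (-0.12, adjusted p = 0.0845) and Hnrnpl (0.11, adjusted p = 0.0978) missed it too.

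No difference in the PHZ effects between the genotypes was called by the test of the difference itself. This does not show that the effects were equal. limma called 0 of 10 members and 0 of 10890 genes, with 0 members and 577 genes at an unadjusted p under 0.05. The largest member estimate was -0.14 for Hnrnpl (SE 0.0695, adjusted p = 0.798), and for Hnrnpa2b1 it was 0.03 with a 95% interval of -0.136 to 0.196.

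**Figure D3:**
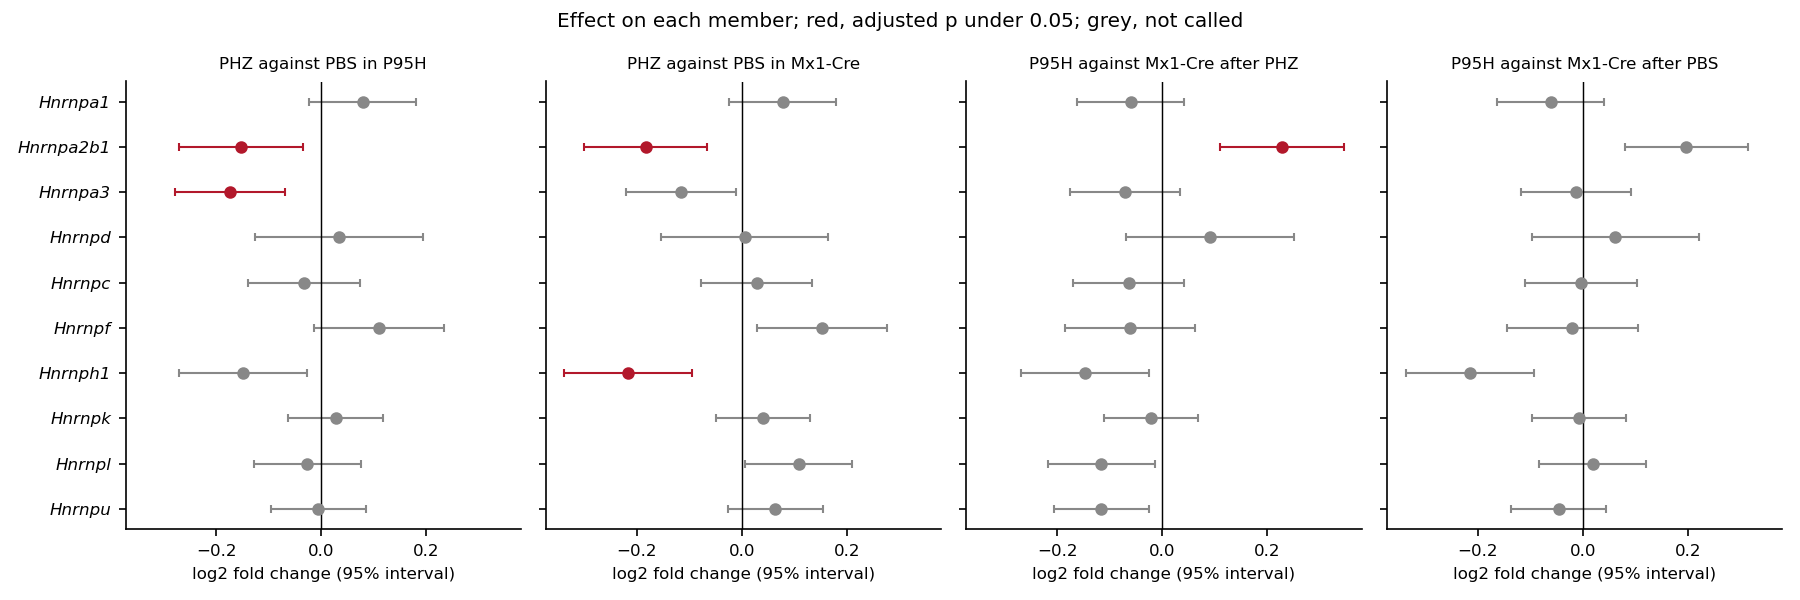
Log2 fold change (x axis) with its 95% interval for each of the 10 members (y axis) in the 4 comparisons, PHZ against PBS in P95H and in Mx1-Cre, and P95H against Mx1-Cre after PHZ and after PBS; red marks an adjusted p under 0.05. After PHZ, Hnrnpa2b1 lies below 0 in both genotypes (-0.15 and -0.18), and in P95H it lies above 0 after either treatment (0.23 and 0.20), while the Hnrnpk estimates lie between -0.02 and 0.04. After quantile normalization the estimate for Hnrnpa2b1 after PHZ in P95H is 0.05.

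The sizes of the PHZ effects were close to the scaling differences between libraries. With the authors' factor for each library divided out, the P95H PHZ comparison called 3 members higher (Hnrnpa1, Hnrnpf and Hnrnpk) and 0 lower, and Hnrnpa2b1 had an estimate of -0.05. The median of all genes moved from -0.02 to 0.08 with it, by 0.0954. After quantile normalization the sign for Hnrnpa2b1 turned (0.05, adjusted p = 0.505), and Hnrnpa3 had -0.04 (adjusted p = 0.513). All 14 granulocyte and monocyte markers were lower after PHZ in P95H (median log2 fold change -1.87), and all 14 estimates were below 0 in Mx1-Cre (median -0.94, 1 called). With their mean as a covariate the P95H PHZ estimates were -0.03 for Hnrnpa2b1 (adjusted p = 0.856) and -0.10 for Hnrnpa3 (adjusted p = 0.41). In P95H the mean log2 value of these markers was 2.60 to 4.07 after PHZ and 4.07 to 6.07 after PBS. The covariate thus nearly follows the treatment, and this fit cannot tell the markers and PHZ apart. The part of these markers in the PHZ result was not tested. Averaged over genotypes, Hnrnpa2b1 after PHZ was not called after quantile normalization (-0.02, adjusted p = 0.667) or with the covariate (-0.07, adjusted p = 0.341). Hnrnpa3 was not called with the factors divided out (-0.07, adjusted p = 0.0766), after quantile normalization (-0.06, adjusted p = 0.134) or with the covariate (-0.09, adjusted p = 0.219), and Hnrnpf was not called with the covariate (0.14, adjusted p = 0.13). Hnrnph1, averaged over both genotypes, was called lower after PHZ under all 31 alternatives run (log2 fold change -0.23 to -0.11, adjusted p up to 0.0381).

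Hnrnpa3 also carries a doubt from its copies. A search of the annotated transcripts found 23 other genes, 22 of them pseudogenes, that match at least 50% of its coding sequence in 1 stretch at 95% identity or more, and 17 of them are in the table. One, Gm5641, a transcribed processed pseudogene on chromosome 3, matches 94.0% of the Hnrnpa3 coding sequence at 100% identity. Its mean signal of 953 was above that of Hnrnpa3, so the reads of these 2 entries may have been split between them. Gm5641 averaged 910.3 ± 48.9 in P95H PHZ and 926 ± 61.9 in P95H PBS libraries (log2 fold change -0.02, SE 0.0546, adjusted p = 0.771). With the copies added to the member, Hnrnpa3 in P95H had an estimate of -0.09 after PHZ and was not called (adjusted p = 0.155), and the average over genotypes was -0.08 (adjusted p = 0.0598). For Hnrnpa1, Hnrnpf and Hnrnpk the copies added at most 0.744% of the member's signal. At these limits no copy was found for Hnrnpa2b1, Hnrnph1, Hnrnpc, Hnrnpd, Hnrnpl or Hnrnpu.

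**Figure D4:**
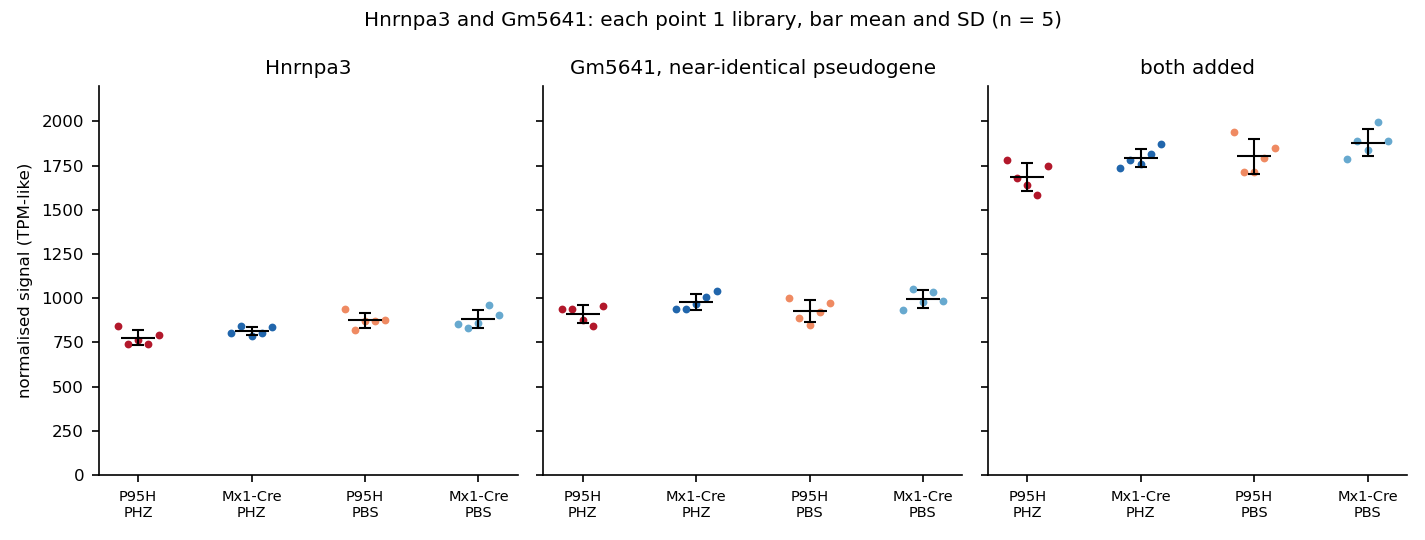
Normalised signal (y axis, from 0) of Hnrnpa3, of its near-identical pseudogene Gm5641 and of both added, in P95H PHZ, Mx1-Cre PHZ, P95H PBS and Mx1-Cre PBS libraries (x axis); points are libraries, bars the mean and whiskers the SD (n = 5). Gm5641 is as high as Hnrnpa3 in all 4 groups, and Hnrnpa3 averages 776 in P95H PHZ and 815 in Mx1-Cre PHZ, against 876 in P95H PBS and 884 in Mx1-Cre PBS.

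The members that no comparison called on the deposited scaling were Hnrnpa1, Hnrnpc, Hnrnpd, Hnrnpk, Hnrnpl and Hnrnpu, and Hnrnpf was called in the PHZ average alone. Hnrnpa1 measured between 1494 and 1811 in P95H PHZ and between 1610.4 and 1796 in Mx1-Cre PHZ libraries, against 1469.6 to 1584 in P95H PBS and 1569 to 1627 in Mx1-Cre PBS libraries. Its PHZ estimate was 0.08 in each genotype (SE 0.0489, adjusted p = 0.235 in P95H and 0.24 in Mx1-Cre). Under other scalings Hnrnpa1 was called higher in both genotypes, at 0.18 in P95H (adjusted p = 0.00336) and 0.12 in Mx1-Cre (adjusted p = 0.0382) with the factors divided out, and at 0.25 in P95H (adjusted p = 0.000919) and 0.17 in Mx1-Cre (adjusted p = 0.0133) after quantile normalization. Hnrnpc averaged 517 ± 19.6 in P95H PHZ libraries, 541 ± 22.0 in Mx1-Cre PHZ libraries, 529.8 ± 40.0 in P95H PBS libraries and 530.1 ± 19.3 in Mx1-Cre PBS libraries, and its PHZ average over genotypes was 0.00 with a 95% interval of -0.08 to 0.07. Hnrnpk averaged 951 ± 39.9, 964 ± 23.6, 933 ± 23.6 and 937 ± 37.3 in P95H PHZ, Mx1-Cre PHZ, P95H PBS and Mx1-Cre PBS, and the 95% interval of its PHZ average was -0.03 to 0.10. Hnrnpd had the widest spread within groups, with values between 466 and 621 over the 20 libraries, and its PHZ average of 0.02 had a 95% interval of -0.09 to 0.13. These intervals hold for the deposited scaling. With the authors' factors divided out the PHZ average was 0.07 for Hnrnpc (adjusted p = 0.0658) and 0.11 for Hnrnpk (adjusted p = 0.0125), and with the marker covariate it was 0.14 for Hnrnpd (adjusted p = 0.182), each above its interval. With the factors divided out the averages of Hnrnpl (0.12, adjusted p = 0.00781) and Hnrnpu (0.10, adjusted p = 0.0315) were called higher too. A missed threshold does not show that the levels were equal.

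The coding sequences of the members share a base pattern, to unlike degrees. In the principal coding transcripts of 9788 genes kept, the median was 22.1 CCNG and 19.6 GGNG per kilobase of coding sequence, read on the coding strand with overlaps counted. All 10 members were above the median for GGNG, with 21.7 for Hnrnpf (percentile 60.1 of these genes) to 56.3 for Hnrnpa3 (percentile 99.7). For CCNG, 9 of 10 were below the median, with Hnrnpl at 24.5 the exception. CCNG made up 14.3% (Hnrnpa1) to 43.8% (Hnrnpf) of the CCNG and GGNG motifs of a member, against a median of 52.8%. Hnrnpa2b1 held 11 CCNG and 45 GGNG in 1023 coding bases, and Hnrnph1 20 and 38 in 1347. A motif match is no evidence of binding. Hnrnpa2b1 and Hnrnph1 both lie above the GGNG median and below the CCNG median. The part of these motifs in the genotype differences was not tested.

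**Figure D5:**
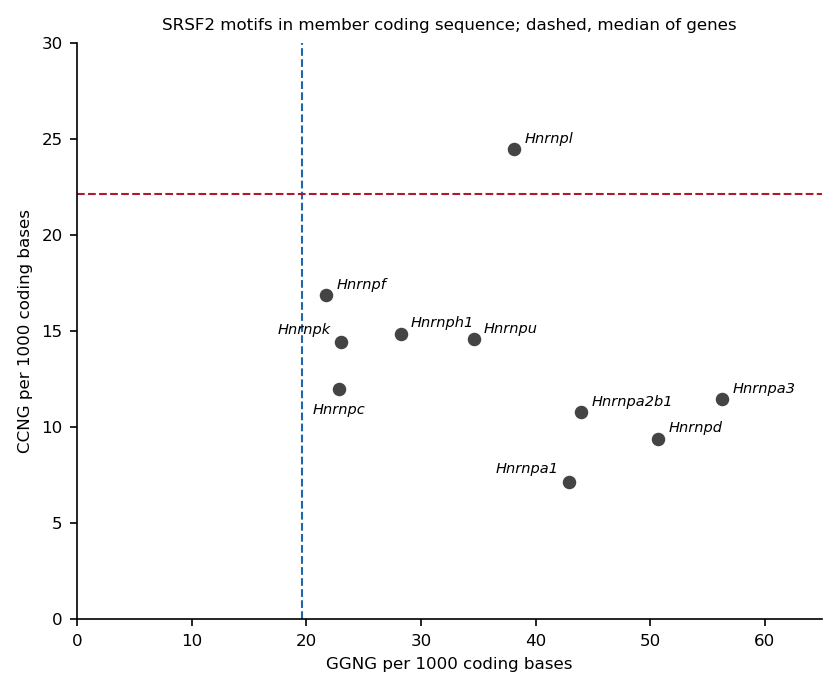
GGNG (x axis) and CCNG (y axis) motifs per kilobase of coding sequence of the 10 members, 1 point per gene; dashed lines mark the medians of 9788 genes, 19.6 for GGNG and 22.1 for CCNG. All 10 members lie right of the GGNG median and all but Hnrnpl below the CCNG median.

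The promoters of Hnrnpa2b1 and Hnrnph1 are shown because their levels differed in both contrasts of the design, in 1 direction after PHZ and in opposite directions by genotype. Each line gives 250 bases before and 50 after a RefSeq start of GRCm38.p6, the window nearest to the start of the principal transcript, chr6:51469796-51470095 on the minus strand and chr11:50377428-50377727 on the plus strand. Capitals mark TGACG, the core of the site bound by ATF and CREB factors, and CCAAT, the site of NF-Y, on either strand.
Hnrnpa2b1 promoter: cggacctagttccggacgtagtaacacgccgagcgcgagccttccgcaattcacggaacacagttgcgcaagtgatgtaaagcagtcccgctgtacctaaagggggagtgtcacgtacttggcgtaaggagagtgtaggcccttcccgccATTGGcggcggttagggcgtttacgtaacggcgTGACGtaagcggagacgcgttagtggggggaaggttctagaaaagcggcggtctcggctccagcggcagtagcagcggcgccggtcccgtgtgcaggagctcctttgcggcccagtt
Hnrnph1 promoter: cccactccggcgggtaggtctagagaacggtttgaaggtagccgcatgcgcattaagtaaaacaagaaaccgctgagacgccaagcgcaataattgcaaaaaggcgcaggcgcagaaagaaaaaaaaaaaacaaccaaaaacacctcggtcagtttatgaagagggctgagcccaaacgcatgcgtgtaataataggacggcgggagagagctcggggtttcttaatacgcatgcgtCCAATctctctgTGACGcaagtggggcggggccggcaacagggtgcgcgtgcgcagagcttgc
Each window holds 1 TGACG and 1 CCAAT, which do not overlap, and TATAAA was in no member's window. TGACG was found in 7 of 10 member windows and in 34.5% of 8261 windows of genes kept (20.8% of all 32851 windows), and CCAAT in 8 of 10, against 40.4% and 37.4%. For genes with several windows these shares are not chosen alike. A member's window was the nearest to its principal start, and that of a gene kept was the first listed. Cbx3, a heterochromatin protein gene, starts on the other strand. Between Cbx3 and the annotated boundary of the Hnrnpa2b1 gene at 51469894 lie 465 bases. That boundary is not the start used for the promoter window. On the deposited scaling Cbx3 was called in none of the 5 contrasts. With the authors' factors divided out, Cbx3 was called higher after PHZ in P95H (log2 fold change 0.17, adjusted p = 0.0139). Cbx3 averaged 376 ± 26.6 in P95H PHZ and 366 ± 17.6 in Mx1-Cre PHZ libraries (log2 fold change 0.04, adjusted p = 0.721), where Hnrnpa2b1 differed.

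The members' relatives and other pre-mRNA binders made a list of 52 genes, of which 45 passed the filter. After PHZ in P95H, 7 were higher, 5 lower and 33 not called, and in Mx1-Cre 8 were higher, 4 lower and 33 not called, with medians of 0.02 and 0.03 against -0.02 and 0.00 over all genes. These 12 of 45 in each genotype stand beside 30.2% of all genes called in P95H (12.6% higher, 17.7% lower) and 31.9% in Mx1-Cre (17.0% higher, 14.9% lower), so the list was not called more often than the background. Khdrbs3, a STAR-family splicing regulator, averaged 1.71 ± 0.88 in P95H PHZ libraries, 4.46 ± 1.46 in Mx1-Cre PHZ libraries, 13.1 ± 2.44 in P95H PBS libraries and 17.1 ± 3.64 in Mx1-Cre PBS libraries. It fell by 2.43 on the log2 scale after PHZ in P95H (SE 0.222, adjusted p = 1.76e-07), and its log2 fold change in Mx1-Cre was -1.75 (adjusted p = 1.03e-05). Mbnl1, a muscleblind splicing regulator, rose by 0.64 in P95H (SE 0.0935, adjusted p = 2.77e-05) and by 0.51 in Mx1-Cre (adjusted p = 0.000365). Pcbp3, a relative of Hnrnpk that binds runs of C, fell by 0.62 and 0.61, and Grsf1, a relative of Hnrnph1 and Hnrnpf that works in mitochondria, rose by 0.22 and 0.27, in P95H and Mx1-Cre.

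By genotype, the list gave 1 higher and 3 lower of 45 after PHZ, beside 1.10% and 4.37% of all genes, and 1 higher and 1 lower after PBS, beside 0.358% and 1.12%. Pcbp3 was higher in P95H after PHZ (0.41, SE 0.0995, adjusted p = 0.018) and after PBS (0.42, adjusted p = 0.0347). Matr3, a nuclear matrix protein that partners with PTB, was lower after PHZ (-0.18, SE 0.0507, adjusted p = 0.0433) and after PBS (-0.23, adjusted p = 0.0213). Hnrnpdl, the closest relative of Hnrnpd, averaged 257 ± 14.8 in P95H PHZ and 303 ± 10.9 in Mx1-Cre PHZ (-0.24, SE 0.0635, adjusted p = 0.0323), and Khdrbs3 was lower after PHZ (-1.03, adjusted p = 0.0102). All of these calls except that of Khdrbs3 depended on single libraries. After PHZ, leaving out 1 library ended the call of Pcbp3 in 1 of 10 fits (Mx1-Cre PHZ replicate 4, adjusted p = 0.0555), of Hnrnpdl in 7 of 10 (all but P95H PHZ replicates 1 and 4 and Mx1-Cre PHZ replicate 2) and of Matr3 in 8 of 10 (all but P95H PHZ replicates 3 and 4). After PBS it ended the call of Pcbp3 in 10 of 10 fits (adjusted p 0.0503 to 0.0922) and of Matr3 in 4 of 10 (P95H PBS replicate 2, Mx1-Cre PBS replicates 1, 3 and 4). The calls of Hnrnpdl and Matr3 after PHZ were also lost with the factors divided out (adjusted p = 0.144 and 0.301) and after quantile normalization (0.129 and 0.335).

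The cofactors that passed the filter, 12 genes, were nuclear transport genes, arginine methyltransferases, protein kinases, among them kinases of SR proteins, the spliceosome component Smu1 and the topoisomerase Top1. After PHZ in P95H 2 were higher and 1 lower, where 12.6% and 17.7% of all genes were. In Mx1-Cre 7 were higher and 1 lower, where 17.0% and 14.9% of all genes were. Tnpo1, the importin that carries A-type hnRNPs into the nucleus, rose by 0.33 in P95H (SE 0.071, adjusted p = 0.0014) and 0.40 in Mx1-Cre (adjusted p = 0.000234). Prmt5, an arginine methyltransferase, rose by 0.19 and 0.35 (adjusted p = 0.0137 and 0.000112). Csnk2a1, a kinase subunit, rose by 0.20 in Mx1-Cre (adjusted p = 0.0213), a call lost without Mx1-Cre PHZ replicate 1 (0.0619) or Mx1-Cre PBS replicate 4 (0.0649). The Csnk2a1 call was also lost after quantile normalization (0.13, adjusted p = 0.148) and with the granulocyte and monocyte covariate (0.15, adjusted p = 0.126). Clk1, a kinase of SR proteins, fell by 0.30 in P95H (adjusted p = 0.0453), a call lost in 7 of 10 fits without 1 library and kept only without P95H PHZ replicate 3 or 5 or P95H PBS replicate 3, and by 0.45 in Mx1-Cre (adjusted p = 0.00447). None of the 12 was called by genotype, and the nearest were Srpk1 after PHZ (-0.18, adjusted p = 0.0759) and Clk1 after PBS (-0.29, adjusted p = 0.23). With the granulocyte and monocyte covariate, the P95H PHZ estimates of Tnpo1 (0.21, adjusted p = 0.19), Prmt5 (0.13, adjusted p = 0.348) and Clk1 (-0.18, adjusted p = 0.549) were not called. As stated above, that fit cannot tell the markers and PHZ apart in P95H.

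Hnrnph1 had the largest mean absolute PHZ effect of the members (0.183 on the log2 scale). Over the 20 libraries, the genes whose centred log2 values came nearest to it were Chek2, a DNA damage checkpoint kinase, Ubp1, a transcription factor, and Pank2, a pantothenate kinase. Their root mean square differences from Hnrnph1 were 0.0657, 0.0674 and 0.0703, against 0.153 for Hnrnph1's own spread about its mean.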

How the data were processed

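Gene expression of sorted CFU-E was analysed in 20 libraries, 5 in each of 4 groups taken from the labels. The authors deposited 1 table of normalised signal with 37748 entries; the submitters' processing notes name TopHat2 2.0.8b, TopHat, RSEM 1.2.4 and Bowtie, and the builds mm10, GRCm38, hg19 and GRCh37, with no role or order. In each library every deposited value divided by 1 factor (0.940 to 1.096) was a whole multiple of 0.01, within 0.01 of a step, so the signal has the form of TPM times a factor of unstated origin.

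The 10890 entries that reached 1 in 5 or more libraries were kept. log2(value + 1) was fitted with limma 3.58.1 in R 4.3.3 (trend, robust), 1 mean per group over 20 libraries, two-sided, with Benjamini-Hochberg adjustment over all genes kept and a threshold of 0.05. Fold changes are on this log2 scale, and those of low genes are understated. The members and lists were chosen with earlier results of these data known. Named genes outside the members are, per list and contrast, up to 4 called genes with the smallest p, or the 2 with the smallest p where fewer than 2 were called. The genes most like a member were sought for the member with the largest mean absolute PHZ effect. Alternatives covered scaling (factors divided out, TMM, quantile normalization), the filter (none, or at 5), the pseudocount (0.1 or 5), fitting only the 2 groups compared, a replicate block, a marker covariate, leaving out libraries and, chosen after seeing the data, adding near-identical copies. The fits were tested on simulated data. Symbols matched 35986 entries; positions are GENCODE vM21 on GRCm38 and promoters RefSeq on GRCm38.p6. Copies were sought with blastn 2.17.0.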

Additional observations from a re-analysis of the deposited data

Results flagged for a closer look

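Of 44 groups of 5 libraries examined (the 10 members and their sum in 4 groups), 2 held a library far from the other 4 by Dixon's 95% limit, where chance gives about 1 in 20. Hnrnpa1 measured 1569 in Mx1-Cre PBS replicate 3, against 1611 to 1627 in the other 4 libraries of that group. Hnrnpc measured 551 in P95H PHZ replicate 1, against 502 to 515 in the other 4. Neither gene was called in any contrast as reported.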

How the results depend on the processing

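Over the 5 contrasts, 1124 of 1170 member estimates under an alternative kept their call status, 24 lost a call and 21 gained one. A further 1 both changed sign and lost its call, Hnrnpa2b1 after PHZ in P95H with quantile normalization (0.0520, adjusted p = 0.505). Of the 1124 that kept their status, 74 changed sign while not called in either fit. In the averaged contrasts, 604 of 620 kept their call status, 7 lost and 9 gained a call. The cause of these changes was not tested. For PHZ in P95H, 0 members were called higher and 2 lower. With the factors divided out this was 3 and 0, with quantile normalization 2 and 0. The lower count was 1 with no filter, with the compared groups alone, without P95H PBS replicates 4 and 5 together and with copies added, and 0 with the marker covariate; leaving out 1 library gave 1 to 3. The related list (7 higher, 5 lower) gave 16 and 3 with the factors divided out, 2 and 2 with the covariate, and 2 lower without P95H PBS replicates 4 and 5 together. For PHZ in Mx1-Cre (0 higher, 2 lower), 3 members were higher with the factors divided out, 2 higher and 1 lower with quantile normalization, and 1 lower with the covariate; leaving out 1 library gave 0 to 1 higher and 1 to 2 lower. With the replicate block, 1 member, Hnrnpf, was called higher (adjusted p = 0.0358), and no other member call changed. Same-numbered libraries correlated by -0.306 to 0.27, above 0.1 in 9 of 20 pairs. Differently numbered libraries were not correlated for comparison, so these values cannot decide whether the numbers pair the libraries.

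For P95H after PHZ, the member count of 1 higher was 0 to 1 without 1 library; in the related list (1 higher, 3 lower) it was 2 higher with no filter, 0 higher with the compared groups alone, 1 lower with the factors divided out or quantile normalization, 5 lower with TMM, and 0 to 1 higher and 1 to 3 lower without 1 library. For P95H after PBS, members (0 and 0) were 1 higher with the factors divided out (Hnrnpa2b1, adjusted p = 0.0461) and 0 to 1 in each direction without 1 library. The related list (1 and 1) was 0 higher with a pseudocount of 0.1, no filter, the covariate, P95H PBS replicates 4 and 5 left out, or any 1 library left out (0 to 0), 2 lower with quantile normalization, 0 lower with the compared groups alone and 0 to 2 without 1 library. Hnrnph1 after PBS passed without P95H PBS replicate 1 (adjusted p = 0.0343) or Mx1-Cre PBS replicate 5 (0.0470). Averaged over genotypes, PHZ members (1 higher, 3 lower) were 5 higher with the factors divided out, 2 with TMM, 3 higher and 1 lower with quantile normalization, 0 higher and 1 lower with the covariate, and 1 to 2 higher without 1 library. With the factors divided out the members summed to 9267 in P95H PHZ, 8745 in P95H PBS and 8663 in Mx1-Cre PBS libraries, against 8836, 8973 and 8897 as deposited. All-gene counts ranged from 449 to 2584 higher and 556 to 2039 lower for PHZ in P95H (1371 and 1923 as reported), 1316 to 2238 and 1069 to 1720 for PHZ in Mx1-Cre (1856 and 1618), 44 to 343 and 145 to 565 for P95H after PHZ (120 and 476), 17 to 54 and 61 to 138 for P95H after PBS (39 and 122), 1123 to 3568 and 1200 to 3000 for PHZ averaged (2405 and 2680), and 133 to 750 and 406 to 941 for P95H averaged (290 and 858). Depth per library is unknown, so no limit on detection is given.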
